A study of Canis lupus familiaris with 36 samples.

Results

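Marginal zone lymphoma (MZL) and T-zone lymphoma (TZL) are the B-lineage and the T-lineage subtype that were labelled low grade in a series of canine lymphoma tissues, and their gene expression was compared here. The dogs were chosen by the disease state in the labels, which gave 5 dogs with MZL and 9 with TZL, 14 of the 35 dogs in the series. All 36 arrays of the series came from primary tumour samples that had been dissociated mechanically and filtered. RNA was hybridised to Affymetrix canine arrays of 43035 probe sets, 1 array per dog except for a repeated case in another subtype. The MZL dogs, of B phenotype, were 4 Golden Retrievers and 1 Mastiff, 4 females and 1 male, aged 4 to 10 years at diagnosis with a median of 6 years. The TZL dogs, of T phenotype, were 8 Golden Retrievers and 1 Mastiff, 3 females and 6 males, aged 7 to 11 years with a median of 10 years. Every dog was a separate case, so the replicate spread is the spread between dogs. High-grade lymphomas of the same series, 10 dogs with diffuse large B-cell lymphoma (DLBCL), 4 with peripheral T-cell lymphoma (PTCL) and 4 labelled LBT, served as the comparison for lineage differences at high grade. Of the PTCL dogs, 1 was labelled intermediate grade. The DLBCL dogs, of B phenotype, were Golden Retrievers, Rottweilers, a Boxer and a Labrador aged 4 to 14 years. The PTCL dogs, of T phenotype, were Boxers, a Golden Retriever and a Bichon Frise aged 6 to 14 years. The LBT dogs, also of T phenotype, were Golden Retrievers and a Labrador aged 3 to 10 years. Each of these subtypes held both sexes. The fit also held a female German Shepherd and a male Golden Retriever labelled BL, of B phenotype and high grade, aged 5 and 2 years.

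Marginal zone B cells sit at the rim of the lymphoid follicle, carry CD20 and CD79 on their surface and answer antigen quickly. T-zone lymphoma arises from T cells that fill the region between follicles, where stromal cells lay down the chemokines CCL19 and CCL21, and in dogs it is an indolent disease whose cells characteristically lack surface CD45 by flow cytometry. Both subtypes grow slowly and can leave parts of the node's structure in place. Such tissue can also hold lymphocytes of the other lineage, plasma cells, macrophages and stroma, whose shares were not measured here.

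The arrays of the 14 dogs were alike in overall brightness, with median intensities of 5.72 to 6.15, and 33.3% to 34.8% of probe sets reached an intensity of 16, a log2 value of 4, which served as the minimum. On 6 of the 34 arrays tested, among them TZL replicates 1, 2 and 7 and no MZL dog, the 3' actin control lay between 14.0 and 14.4 against 10.8 to 12.5 elsewhere. The 3' minus 5' difference of the actin control was -0.485 ± 0.400 in MZL and 0.751 ± 2.96 in TZL (SD, n = 5 and 9, two-sided exact permutation p = 0.420, adjusted p = 0.467 over 2 controls). Without the arrays standing apart it was higher in MZL by 0.602 (n = 5 and 6, exact permutation p = 0.0346, adjusted p = 0.0693). The same difference for GAPDH was 0.161 higher in MZL (exact permutation p = 0.467). Dogs resembled their own subtype, with a median correlation across genes of 0.944 over the 10 MZL pairs and 0.934 over the 36 TZL pairs, against 0.862 over the 45 pairs between subtypes.

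Of the 7500 genes tested, 2065 (27.5%) differed between MZL and TZL at an adjusted p under 0.05. Higher levels in MZL were found for 1142 genes (15.2%) and lower levels for 923 (12.3%). These shares are the background for all counts of list members below. The difference reached 2-fold for 1343 of them, 685 higher and 658 lower in MZL. For 1055 genes (14.1% of those tested) the ranges of the 5 MZL and 9 TZL dogs did not overlap, and 989 of these passed the test, 495 higher and 494 lower. The median log2 difference over all tested genes was 0.083. With age in the fit 2004 genes passed and with sex 1929. These counts do not show whether the same genes passed. Age and sex were unequal between the subtypes and cannot be fully told apart from subtype. Because bulk samples were measured, fewer cells of a type and less RNA per cell cannot be told apart in any of these differences.

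**Figure D1:**
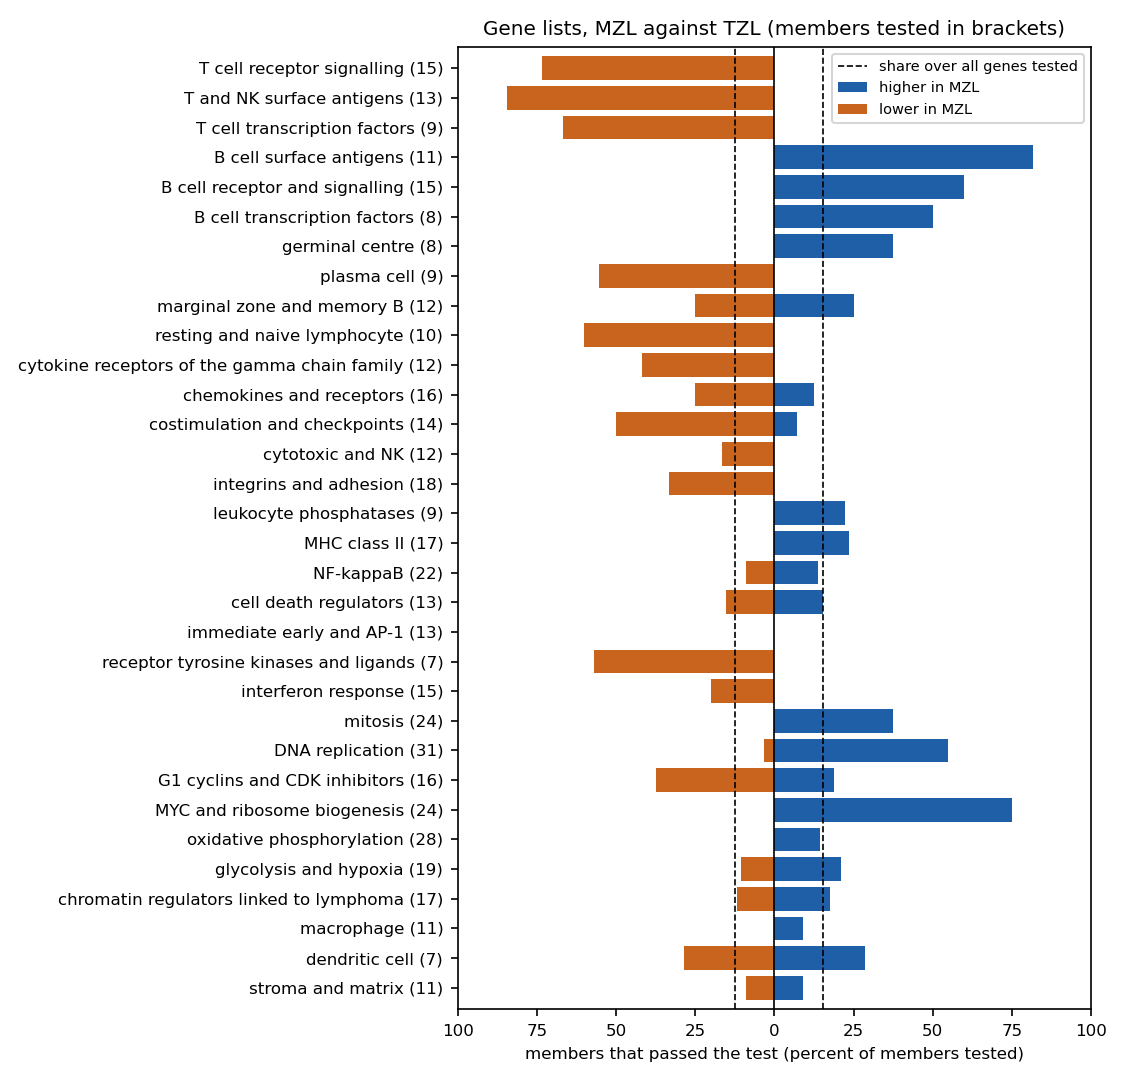
Share of tested members of each list that passed the test, to the left for genes lower and to the right for genes higher in MZL than in TZL, with the number tested in brackets. The lists are groups of genes with a known role, described with the results. Dashed lines give the shares over all 7500 genes, 12.3% lower and 15.2% higher. The T cell, resting lymphocyte and plasma cell lists extend to the left, the B cell, replication and ribosome lists to the right.

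Among genes whose dogs did not overlap between the subtypes, those with the largest differences were bright in every TZL dog, and the MZL dogs ranged from below the minimum to moderate levels. CCDC3, a secreted coiled-coil protein, had log2 intensities of 2.81, 2.83, 2.61, 3.42 and 3.20 in MZL replicates 1 to 5 and of 10.16 to 11.65 with a median of 10.57 in TZL. All MZL values lay below the minimum, so CCDC3 was at least 111-fold lower in MZL (difference -7.82 ± 0.54, log2 ± SE, limma adjusted p = 1.1e-11). TRAT1, an adaptor that stabilises the T cell receptor, measured 2.98, 4.38, 4.36, 6.32 and 6.33 in MZL and 10.33 to 11.53 with a median of 11.08 in TZL. It was 58.7-fold lower in MZL, a fold that, like all others here, counts any value under the minimum as equal to the minimum. MZL replicates 4 and 5 stood above the other MZL dogs for TRAT1 and still well below every TZL dog. CD40LG, the ligand by which helper T cells drive B cells, measured 2.29, 3.74, 3.35, 3.55 and 2.86 in MZL and 8.72 to 10.41 with a median of 9.25 in TZL, at least 47.4-fold lower in MZL.

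**Figure D2:**
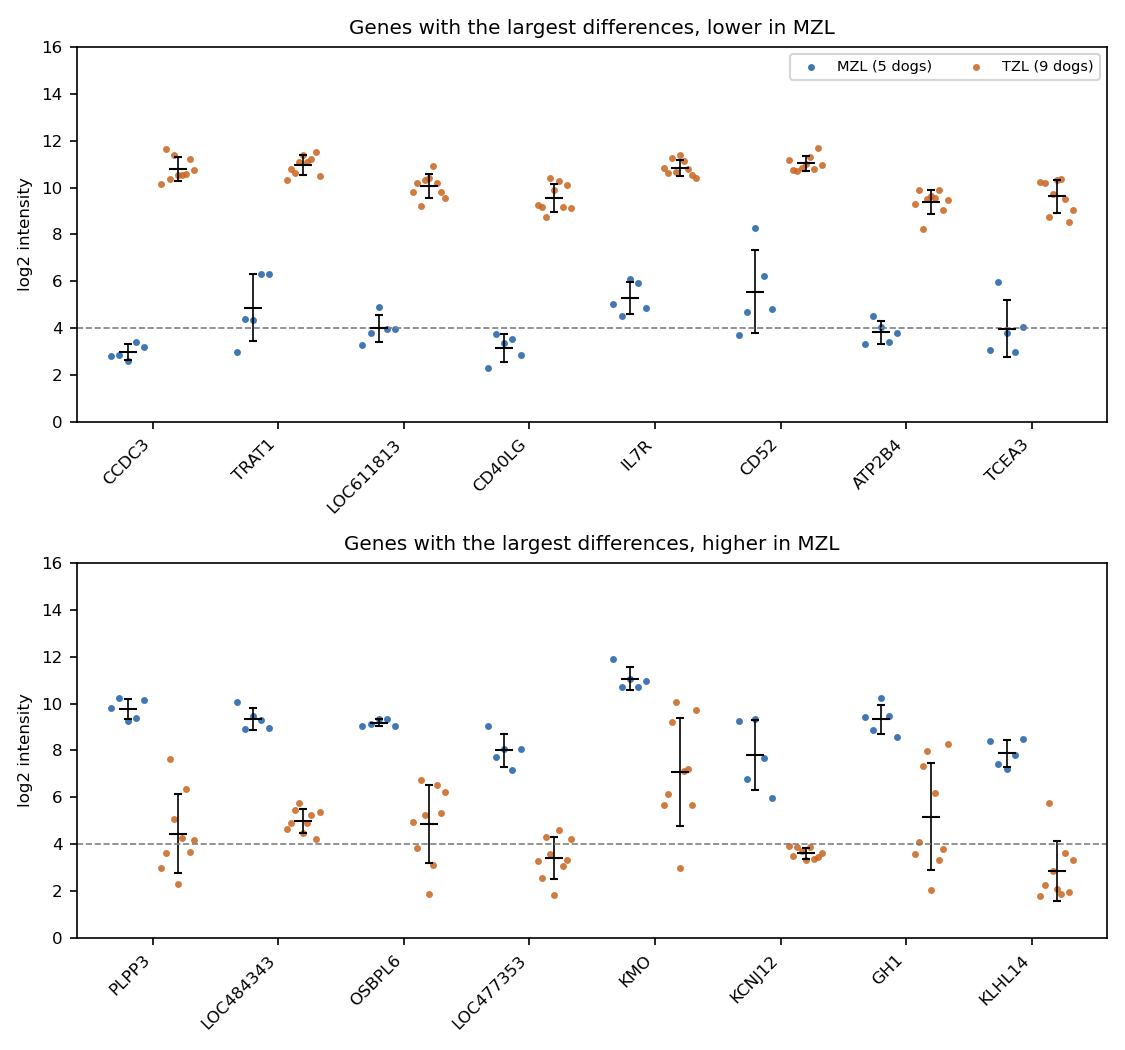
Log2 intensity of the 8 genes with the largest difference in each direction, 1 point per dog, for 5 MZL and 9 TZL dogs. Bars give the mean ± SD and the dashed line the minimum of 4. The genes were chosen among those whose subtypes do not overlap. TZL dogs spread widely in PLPP3, OSBPL6, KMO and GH1.

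IL7R, the receptor for interleukin-7 that maintains resting T cells, was on average 47.4-fold lower in MZL (5.05, 4.52, 6.08, 5.92 and 4.84 against 10.40 to 11.39 with a median of 10.81). The surface glycoprotein CD52 measured 3.71, 4.70, 8.27, 6.25 and 4.82 in the MZL dogs and 10.71 to 11.70 with a median of 10.95 in TZL, a 42.8-fold difference. MZL replicate 3 was the brightest MZL dog for CD52 and was still dimmer than every TZL dog. ATP2B4, a plasma membrane calcium pump, differed 38.8-fold (3.32 to 4.52 in MZL, 8.25 to 9.91 in TZL), and TCEA3, a transcription elongation factor, differed 37.5-fold (2.98 to 5.98 against 8.54 to 10.36). LOC611813, a protein-coding gene with no further name in the gene table, was 58.4-fold lower in MZL (3.29 to 4.90 against 9.21 to 10.92). Adjusted p-values for these 5 genes ran from 1.13e-08 for ATP2B4 to 1.32e-05 for CD52.

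Genes of T cell identity were lower in MZL as a group. All 5 tested members of the T cell receptor complex were lower (median log2 difference -2.72), as were 11 of 15 genes of T cell receptor signalling (median -2.54), 11 of 13 surface antigens of T and NK cells (median -3.36) and 6 of 9 T cell transcription factors (median -1.45). No member of these 4 lists was higher, and 12.3% of all genes were lower. CD3E, a signalling chain of the receptor, measured 5.14, 8.30, 9.46, 9.06 and 8.33 in MZL and 11.25 to 12.24 with a median of 12.16 in TZL (difference -3.90 ± 0.96, adjusted p = 0.00277). MZL replicate 1 had the lowest CD3E, and all MZL dogs were clearly above the minimum for it. CD3D lay only 1.02 lower in MZL on the log2 scale (11.45 ± 0.75 against 12.47 ± 0.25, SD), CD3G 2.41 and the zeta chain CD247 2.71 lower. T cell receptor genes were measured in every MZL tumour all the same, and the summed intensity of the 5 receptor complex genes ran from 1389 to 6173 in MZL and from 11560 to 19640 in TZL.

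Below the receptor, the kinase PRKCQ was 35.1-fold lower in MZL (3.32, 4.15, 4.57, 5.42 and 4.33 against 9.07 to 9.99 with a median of 9.62). The adaptor LCP2 was 5.03-fold lower, at 7.81 ± 0.87 in MZL and 10.14 ± 0.33 in TZL. The costimulatory receptor CD28 did not exceed the minimum in any MZL dog (2.73 to 4.00) and was 8.11 to 9.68 in TZL, at least 28.9-fold lower. CD96, an adhesion receptor of T and NK cells, was at least 17.6-fold lower on the same ground. CD5, a scavenger receptor family antigen of T cells, measured 4.50, 6.00, 6.41, 6.27 and 5.02 in MZL and 8.44 to 10.11 with a median of 9.52 in TZL, 12.9-fold lower. Among the transcription factors, GATA3 was below the minimum in every MZL dog and ranged from 5.56 to 10.59 in TZL, at least 21.9-fold lower in MZL. LEF1 was 19.0-fold lower (2.86 to 5.89 against 8.54 to 10.04) and TCF7, its partner in T cell development, at least 3.75-fold lower (2.39 to 3.35 against 3.35 to 7.71). Adjusted p-values ran from 4.89e-10 for CD28 to 0.000308 for TCF7.

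Genes of resting lymphocytes followed the same direction, with 6 of 10 lower in MZL and none higher (median -1.46). IL7R, LEF1, TCF7, SATB1 and CD27 among them also stand on other lists, and the call of SATB1 was lost without MZL replicate 2 or 5. Of 12 receptors and regulators of the common gamma chain cytokines, 5 were lower and none higher, namely IL7R, CISH, IL21R, IL15RA and IL2RB. IL15RA did not pass when values under the minimum were raised to it (difference -0.173, limma adjusted p = 0.229). CISH, a feedback inhibitor of cytokine signalling, was below the minimum in every MZL dog and measured 2.97 to 8.64 with a median of 5.16 in TZL. Of 14 costimulatory molecules and checkpoints, 7 were lower in MZL and 1, CD40, was higher. CD80, which binds CD28, was 21.3-fold lower in MZL (4.03, 5.54, 3.78, 4.44 and 4.72 against 8.11 to 9.80 with a median of 9.17, adjusted p = 2.15e-07). IL2RA, the CD25 chain of the interleukin-2 receptor, did not pass (MZL 4.42 ± 0.39, TZL 4.18 ± 1.06, SD). The 95% interval of its log2 difference was -0.75 to 1.24; such intervals are for the single gene and are not adjusted over genes.

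The TZL dogs lay close together in CD3E and differed widely in their co-receptors. CD8A measured 3.38, 7.11, 5.95, 2.85, 10.97, 10.59, 8.52, 3.36 and 4.78 in TZL replicates 1 to 9, and CD8B 4.36, 4.85, 6.75, 3.90, 11.68, 11.28, 10.95, 3.33 and 7.01. CD8A was brightest in replicates 5, 6 and 7 and close to or below the minimum in replicates 1, 4 and 8. CD4 measured 6.45, 3.05, 8.61, 4.51, 3.08, 4.52, 4.12, 8.58 and 8.42 in the same order. CD4 was brightest in replicates 3, 8 and 9, and replicates 2, 4, 5, 6 and 7 lay between 3.05 and 4.52. In MZL, CD8A ranged from 2.14 to 4.20 and CD4 from 4.18 to 5.93. CD8A was lower in MZL than in TZL (difference -3.33 ± 0.95, adjusted p = 0.00903), although the ranges overlapped and the call was lost in Golden Retrievers only and in the fit of the MZL and TZL dogs alone (adjusted p = 0.0616, range 0.00263 to 0.0616 over the alternatives). CD8B was lower by 3.36 (adjusted p = 0.0272), a call that was lost without MZL replicate 1, 2 or 5 or TZL replicate 5, 6 or 7, with an adjusted p of 0.0108 to 0.0912 over the alternatives. CD4 did not pass the test, with a 95% interval of -2.11 to 0.98 for the log2 difference.

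**Figure D3:**
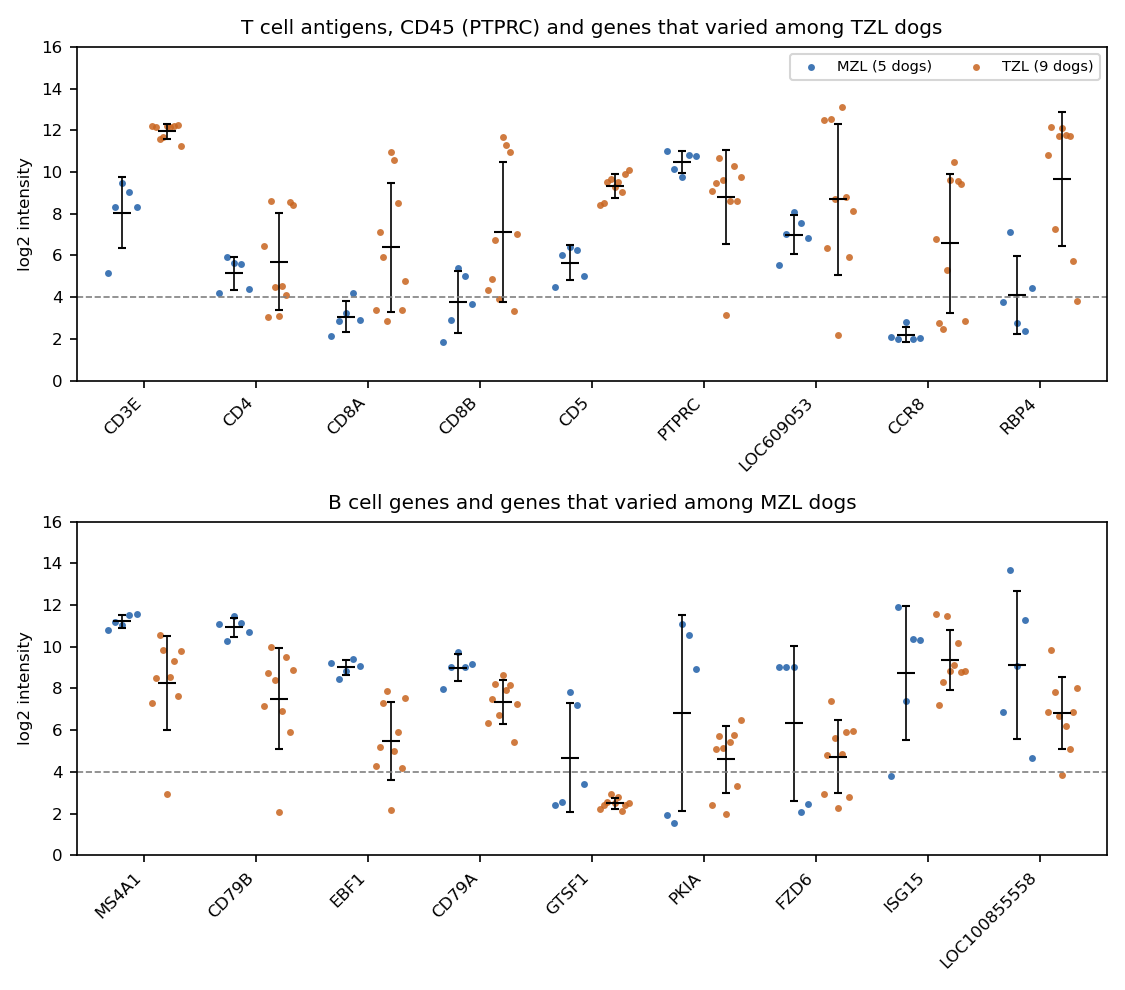
Log2 intensity in each dog (points, mean ± SD) for T cell antigens, PTPRC, B cell genes and genes that varied within a subtype, in 5 MZL and 9 TZL dogs, with the minimum of 4 dashed. CD3E is tight in TZL while CD4, CD8A and CD8B spread over several log2 units, and 1 TZL dog (replicate 5) lies below the minimum for PTPRC, MS4A1, CD79B and EBF1.

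PLPP3, a phosphatase that degrades extracellular lipid messengers, measured 9.82, 10.23, 9.26, 9.37 and 10.16 in MZL and 2.30 to 7.64 with a median of 4.16 in TZL, 30.6-fold higher in MZL (difference 5.32 ± 0.69, adjusted p = 1.7e-06). KLHL14, a Kelch-like protein, measured 8.42, 7.43, 7.23, 7.81 and 8.47 in MZL, while 8 of the 9 TZL dogs lay below the minimum and TZL replicate 3 reached 5.77 (12.8-fold higher in MZL). OSBPL6, of the oxysterol-binding family, varied little in MZL (9.05 to 9.34) and ranged from 1.86 to 6.72 in TZL, a 15.5-fold difference. KMO, the kynurenine monooxygenase of tryptophan breakdown, measured 11.89, 10.69, 11.06, 10.71 and 10.97 in MZL and 2.98 to 10.06 with a median of 7.13 in TZL, 14.6-fold higher in MZL. KCNJ12, an inward rectifier potassium channel, was below the minimum in all TZL dogs (3.31 to 3.93) and 5.96 to 9.35 in MZL, at least 14.0-fold higher.

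The LOC484343 and LOC477353 genes, both listed as protein coding without a name, were 20.2-fold and 14.7-fold higher in MZL. The probe set annotated to GH1, the growth hormone gene, was 13.8-fold higher in MZL (9.44, 8.87, 10.25, 9.45 and 8.59 against 2.04 to 8.29 with a median of 4.07). In the RefSeq gene table of the UU_Cfam_GSD_1.0 assembly GH1 is a neighbour of CD79B, and which of the transcripts the GH1 probe set measures was not tested. TZL replicate 5 was the lowest dog for both probe sets (2.04 and 2.08). In the other TZL dogs GH1 ranged from 3.31 to 8.29 and CD79B from 5.90 to 10.00, and TZL replicate 7 was low for GH1 and high for CD79B (3.31 and 9.51).

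B cell genes were higher in MZL as a group. Of 11 B cell surface antigens tested 9 were higher (median log2 difference 2.81), of 15 genes of the B cell receptor and its signalling 9 (median 2.95) and of 8 B cell transcription factors 4 (median 1.91), against 15.2% of all genes. No member of these lists was lower. MS4A1, which encodes CD20, measured 10.81, 11.20, 11.06, 11.50 and 11.55 in MZL and 2.91 to 10.55 with a median of 8.55 in TZL, 7.14-fold higher in MZL (adjusted p = 0.0165). CD79B, a signalling chain of the B cell receptor, measured 11.11, 10.29, 11.48, 11.13 and 10.71 in MZL and 2.08 to 10.00 with a median of 8.38 in TZL, 9.35-fold higher (adjusted p = 0.0131). Its partner CD79A did not pass: it was 9.00 ± 0.63 in MZL and 7.35 ± 1.03 in TZL, with overlapping ranges and a 95% interval of 0.08 to 3.22 for the log2 difference. CD79A did pass in the fit of the MZL and TZL dogs alone and with array weights (limma adjusted p 0.0155 to 0.212 over the alternatives).

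The kinase BLK measured 7.95, 8.09, 7.19, 7.37 and 7.40 in MZL and 2.39 to 5.61 with a median of 3.19 in TZL, 9.99-fold higher (difference 4.00 ± 0.54, adjusted p = 2.87e-06). SYK, the kinase that acts on the receptor's tails, was 9.03-fold higher and the phospholipase PLCG2 9.12-fold higher. EBF1, a factor that specifies the B lineage, measured 9.20, 8.46, 8.85, 9.43 and 9.09 in MZL and 2.15 to 7.87 with a median of 5.18 in TZL, 9.92-fold higher. BCL11A was 6.04-fold, SPI1 4.05-fold and POU2AF1 2.75-fold higher in MZL. TNFRSF13C and TNFRSF13B, receptors of B cell survival factors, were 6.51-fold and 6.77-fold higher, FCRL1 3.01-fold and CD180 5.90-fold. Chemokine receptors that place B cells in and around follicles were higher as well, CXCR5 9.05-fold (7.02 to 8.42 in MZL, 1.97 to 6.44 in TZL) and CCR6 4.79-fold (5.32 to 7.83 and 1.37 to 5.46). The ranges of the subtypes overlapped for SPI1, POU2AF1, TNFRSF13B and CCR6. The largest adjusted p among the genes of this paragraph was 0.0181, for POU2AF1, whose call was lost without MZL replicate 4.

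Genes linked to stages of B cell life did not all move with the lineage. Of 8 germinal centre genes 3 were higher in MZL, EZH2, STAP1 and LMO2, and BCL6, the regulator of the germinal centre, did not pass (MZL 7.17 ± 0.50, TZL 8.63 ± 0.99, 95% interval -2.98 to 0.07 for the difference). BCL6 did pass as lower in MZL in the fit of the MZL and TZL dogs alone and with array weights (limma adjusted p 0.0211 to 0.264 over the alternatives). The list of marginal zone and memory B cell genes split: of 12 tested, MYOF, PLD4 and FCRL4 were higher in MZL and CD9, CD27 and DTX1 lower. DTX1 did not pass when values under the minimum were raised to it (difference -0.322, limma adjusted p = 0.222). MYOF, a membrane repair protein, measured 8.64, 8.93, 8.08, 9.27 and 9.24 in MZL and 2.54 to 7.03 with a median of 5.75 in TZL, 11.3-fold higher. CD9, a tetraspanin of marginal zone B cells, measured 4.80, 5.75, 4.11, 3.43 and 3.59 in MZL and 6.17 to 9.82 with a median of 8.43 in TZL and was 14.2-fold lower in MZL. CD27, carried by memory B cells and by T cells, was 13.6-fold lower in MZL. The call of FCRL4 was lost under 17 of the alternatives, among them leaving out MZL replicate 2, 4 or 5 and 7 single TZL dogs. NOTCH2, the receptor that directs B cells to the marginal zone, and PAX5 lay below the minimum in all 14 dogs and were not tested.

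Of 9 plasma cell genes tested, 5 were lower in MZL and none higher (median -1.12), namely JCHAIN, XBP1, PRDM1, CD38 and SEC11C, and the count was 3 without the arrays standing apart, without MZL replicate 1 or 3, with age in the fit or in Golden Retrievers only. JCHAIN, which joins antibody chains into polymers, measured 10.24, 8.80, 9.73, 10.28 and 9.62 in MZL and 11.59 to 13.49 with a median of 13.03 in TZL, 8.03-fold lower in MZL (difference -3.00 ± 0.58, adjusted p = 0.00028). XBP1, the factor that builds the secretory apparatus, was 2.56-fold lower in MZL (10.12 ± 0.39 against 11.47 ± 0.37). PRDM1, CD38 and XBP1 are also known in other activated lymphocytes. The summed intensity of the plasma cell list was 9733 to 11440 in MZL and 12590 to 26330 in TZL. The call of CD38 was lost without MZL replicate 1, 3 or 5 and that of SEC11C without MZL replicate 1, 2 or 3 or TZL replicate 2 or 9. PRDM1 did not pass when values under the minimum were raised to it (difference -1.24, limma adjusted p = 0.0576).

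B cell genes were measured in most TZL tumours. MS4A1 measured 7.28, 8.50, 10.55, 9.83, 2.91, 8.55, 9.32, 7.62 and 9.81 in TZL replicates 1 to 9 and CD79B 7.14, 8.74, 10.00, 8.38, 2.08, 6.90, 9.51, 5.90 and 8.89. TZL replicate 5 alone was below the minimum for both and for EBF1 (2.15). PTPRC, which encodes CD45, measured 9.07, 9.46, 10.67, 9.62, 3.14, 8.61, 10.29, 8.61 and 9.78 in the TZL dogs and 11.02, 10.13, 9.76, 10.81 and 10.76 in MZL. The lowest PTPRC value was that of TZL replicate 5, and the ranges of the subtypes overlapped. PTPRC did not pass the test (difference 1.69 ± 0.70, adjusted p = 0.0707, 95% interval 0.26 to 3.12); without TZL replicate 5 the difference was 0.983 and passed, as it did without TZL replicate 3 or 7 (1.92 and 1.88), and over the alternatives the adjusted p ranged from 0.0261 to 0.179. Of the other probe sets of PTPRC, 1 was 2.34 higher in MZL and passed (adjusted p = 0.0131) and 1 was 1.33 higher and did not (adjusted p = 0.2). CD79A was not low in TZL replicate 5 (8.65), which leaves that dog low in some B cell genes and not in others.

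Markers of other cell types were set beside PTPRC in TZL replicate 5. The summed intensity of B cell surface antigens, of which 11 of 12 reached the minimum in some dog, was 2220 in that dog, within the TZL range of 1751 to 5268, and 6651 to 10430 in MZL. The mean log2 level of the tested members of that list was the lowest of all TZL dogs in replicate 5 (3.32, TZL median 5.60). The same held for B cell receptor and signalling genes (4.08) and for B cell transcription factors (3.00). The macrophage sum, with 12 of 15 markers at the minimum in some dog, was 292 in TZL replicate 5 against 1900 to 10900 in the other TZL dogs and 5280 to 9080 in MZL. Dendritic cell markers summed to 148 in that dog, the lowest TZL sum, and T cell receptor complex genes to 19600, the highest of all dogs. Their part in the PTPRC result was not tested.

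Chemokines of the T zone were bright in TZL. CCL19 measured 8.73, 7.94, 6.87, 11.10, 6.09, 11.78, 8.65, 9.02 and 8.96 in TZL replicates 1 to 9 and was below the minimum in all MZL dogs (2.49 to 3.22), at least 27.7-fold lower in MZL (adjusted p = 4.33e-07). CCL21, the other ligand of the receptor CCR7, measured 8.43, 9.01, 6.61, 10.27, 5.32, 11.52, 9.56, 8.09 and 8.96 in TZL and 2.75 to 3.33 in MZL, at least 25.0-fold lower. Both chemokines were lowest in TZL replicates 3 and 5 and highest in replicates 4 and 6. CCR7 itself did not pass, at 5.66 ± 0.25 in MZL and 6.14 ± 1.59 in TZL with a 95% interval of -1.90 to 0.95 for the difference. Of the 16 chemokines and receptors tested, CCL19, CCL21, CCR4 and CXCL12 were lower in MZL and CCR6 and CXCR5 higher, and the call of CXCL12 was lost without MZL replicate 1, 3 or 5. Stromal and matrix markers, of which 13 of 19 reached the minimum in some dog, summed to 4054 to 10920 in MZL and 9899 to 15260 in TZL. Such a sum is carried by its brightest members. The mean log2 level of the tested members overlapped, at 3.86 to 7.92 in MZL and 4.13 to 6.83 in TZL. Of 11 tested FBN1 was higher in MZL (6.95-fold) and THY1, which T cells of dogs also carry, lower, a call that was lost without MZL replicate 1. Endothelial markers summed to 130 to 494 in MZL and 91.5 to 350 in TZL, with 13 of 15 below the minimum in all 14 dogs. The part of stromal cells in the chemokine difference was not tested.

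KRT18, a keratin of simple epithelia, measured 3.33, 3.12, 4.05, 3.29 and 3.52 in MZL and 8.56, 8.03, 6.88, 8.10, 9.06, 6.20, 9.60, 7.76 and 7.00 in TZL, 14.9-fold lower in MZL (adjusted p = 0.00124). Every TZL dog expressed it above every MZL dog. Of the 6 epithelial markers with a probe set, 4 were below the minimum in all 14 dogs, and the sum of the list was 32.8 to 82.3 in MZL and 104 to 968 in TZL. The part of epithelial cells in the KRT18 difference was not tested. Of 11 macrophage genes 1 was higher in MZL, C1QA, at 10.11 ± 0.68 in MZL and 7.19 ± 2.41 in TZL. That call was lost without MZL replicate 1, 2, 4 or 5 or TZL replicate 1 or 5, with adjusted p-values of 0.00971 to 0.0874 over the alternatives. Of 7 dendritic cell genes, LAMP3 (8.04-fold) and CD1C (at least 5.28-fold) were higher in MZL and FLT3 and FCER1A lower, and the call of FCER1A was lost under 15 alternatives, among them leaving out any single MZL dog. Of 3 follicular dendritic cell genes TNFRSF1A was lower in MZL. No gene of the 4 tested for neutrophils and mast cells and none of the 4 tested for endothelium passed limma's test at an adjusted p under 0.05, and 0 of these 8 had an unadjusted p under 0.05. Of 12 cytotoxic and NK genes FASLG and NCR3 were lower in MZL, a share near the 12.3% of all genes, and the count was 1 without MZL replicate 1 and 4 without TZL replicate 5 or 6.

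Part of the genes of DNA replication and mitosis were higher in MZL than in TZL. Of 31 DNA replication genes 17 were higher in MZL and 1, RFC1, lower (median log2 difference 0.946), against 15.2% and 12.3% of all genes. Of 24 mitosis genes 9 were higher and none lower (median 1.20), and all 24 differences were positive. The mitosis count was 16 without the arrays standing apart, 17 with array weights, 5 in the fit of the MZL and TZL dogs alone, 4 without MZL replicate 2 and also without MZL replicate 5, 5 without TZL replicate 5 and 14 without TZL replicate 9. The mean log2 level of the replication genes ran from 7.21 to 8.04 in MZL and from 5.94 to 7.31 in TZL, and that of the mitosis genes from 5.45 to 6.99 and from 3.30 to 6.23. In TZL the lowest dog was replicate 5 for both lists and the highest replicate 7.

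**Figure D4:**
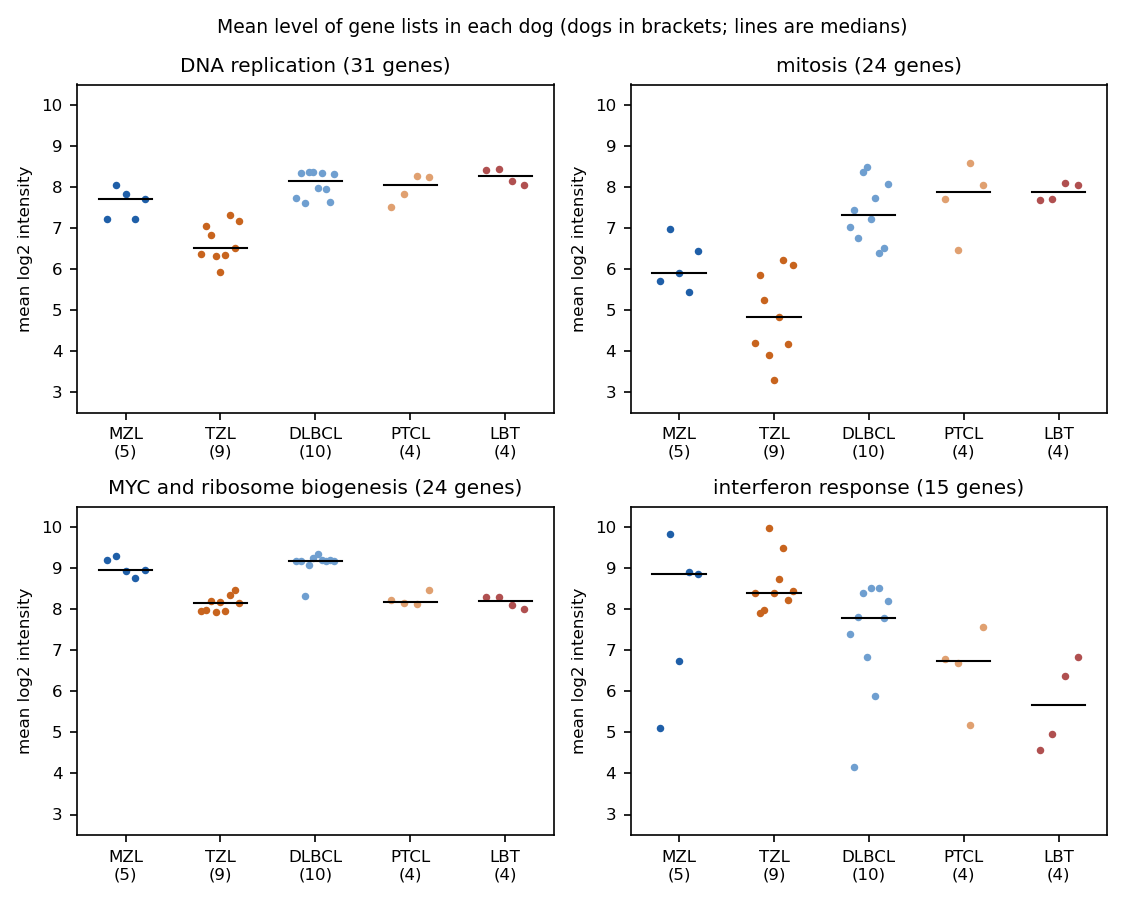
Mean log2 intensity over the tested genes of 4 lists, 1 point per dog, in MZL (5 dogs), TZL (9), DLBCL (10), PTCL (4) and LBT (4), with medians as lines. The TZL median is the lowest for DNA replication and mitosis, every MZL dog lies above every TZL dog for ribosome biogenesis, and the MZL dogs spread from 5.12 to 9.84 for interferon response genes.

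ORC6, of the complex that marks replication origins, measured 8.01, 8.92, 8.94, 8.04 and 8.67 in MZL and 4.52 to 7.05 with a median of 5.77 in TZL, 5.52-fold higher in MZL (difference 2.46 ± 0.34, adjusted p = 3.29e-06). POLD1, the catalytic subunit of a replicative polymerase, was 3.98-fold higher (7.13 to 8.65 against 5.14 to 6.94). CCNE2, a cyclin of entry into S phase, measured 8.30, 8.18, 8.50, 7.68 and 8.42 in MZL and 4.37 to 6.98 with a median of 5.61 in TZL, 5.57-fold higher. MYBL2, a factor that switches on mitotic genes, was 7.89-fold higher and the mitotic kinase AURKB 2.76-fold. TOP2A, the topoisomerase of dividing cells, overlapped and did not pass (8.61 ± 0.48 in MZL, 7.40 ± 1.48 in TZL, adjusted p = 0.102, 95% interval 0.08 to 2.33), although it passed without TZL replicate 7. Of 16 cyclins and inhibitors of the G1 phase 6 were lower in MZL and CCNE2, E2F5 and CDK4 passed as higher (median -0.686). The inhibitor CDKN2D was 6.72-fold lower in MZL (4.30 to 6.57 against 7.10 to 8.85) and the phosphatase CDC25B, which activates cyclin kinases, 4.04-fold lower. E2F5 lay below the minimum in all 14 dogs, so its level had only an upper bound in both subtypes, and with values set to the minimum its difference was 0 and the call was lost. The call of CDK4 was lost without MZL replicate 3.

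Of 24 genes of ribosome biogenesis 18 were higher in MZL and none lower, with a median of 0.916. NOP56, a core protein of box C/D particles, measured 10.91, 11.20, 11.04, 10.88 and 10.88 in MZL and 9.12 to 10.02 with a median of 9.60 in TZL, 2.63-fold higher. DKC1, which modifies ribosomal RNA, was 3.42-fold, RRP12 4.14-fold and UTP4 2.05-fold higher, with non-overlapping dogs and a largest adjusted p of 9.08e-05. MYC, a regulator of these genes, did not pass: it measured 10.73, 9.58, 8.41, 8.63 and 9.95 in MZL and 7.56 to 9.90 with a median of 8.50 in TZL (95% interval 0.07 to 1.88, adjusted p = 0.101), although it passed without TZL replicate 1. The mean level of the list was 8.76 to 9.29 in MZL and 7.94 to 8.46 in TZL, which did not overlap.

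Of 28 oxidative phosphorylation genes 4 were higher in MZL, COX4I1, ATP5F1B, NDUFS3 and NDUFS1, a share near the 15.2% of all genes. The count was 2 without MZL replicate 1 or 3, TZL replicate 2 or the arrays standing apart, 1 in Golden Retrievers only and 10 with array weights. For NDUFS1 another probe set had a difference of -0.623 in the opposite direction, which did not pass. Of 19 glycolysis and hypoxia genes ENO1, PFKL, PDK1 and PGAM1 were higher in MZL and ALDOC and ENO2 lower, against 15.2% and 12.3% of all genes. PFKL, the liver form of phosphofructokinase, was 4.40-fold higher (10.17, 10.25, 10.92, 10.30 and 10.14 against 7.15 to 8.88 with a median of 8.28) and ENO1 1.63-fold, while the aldolase ALDOC was 4.96-fold lower. The call of PGAM1 was lost without MZL replicate 4 and that of ENO2 without MZL replicate 1.

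Of 13 regulators of cell death tested, BCL2L14 and BID were higher in MZL and BCL2L1 and BCL2A1 lower, shares near the 15.2% and 12.3% of all genes. BCL2L1, which encodes the survival protein BCL-XL, measured 3.34, 4.46, 4.67, 3.20 and 4.08 in MZL and 5.98 to 7.56 with a median of 6.44 in TZL, 4.93-fold lower in MZL (adjusted p = 3.62e-06). The call of BCL2A1 was lost without MZL replicate 3 or 5 and without the arrays standing apart, and its adjusted p was 0.00351 to 0.0965 over the alternatives. Of the other probe sets of BCL2L14, 1 had a difference of -0.224, opposite to the 2.86 of the set used and not past the threshold, and 3 had differences of 1.27 to 2.01 that passed. BCL2 did not pass (7.57 ± 0.96 in MZL, 8.79 ± 0.61 in TZL, 95% interval -2.32 to -0.12). It did pass in the fit of the MZL and TZL dogs alone and with array weights (limma adjusted p 0.00745 to 0.261 over the alternatives).

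Of 22 NF-kappaB genes BCL10, TRAF3 and NFKBID were higher in MZL and MALT1 and BCL3 lower, shares close to or below the 15.2% and 12.3% of all genes. The count of higher genes was 1 without MZL replicate 1, 5 with age in the fit and 6 in the fit of the MZL and TZL dogs alone, where 4 were lower, and with array weights 5 were lower. The call of NFKBID was lost under 11 alternatives, among them leaving out MZL replicate 1, 2 or 4 or TZL replicate 2, 5 or 7. BCL10, which bridges antigen receptors to NF-kappaB, was 1.91-fold higher (8.62 to 9.44 against 7.41 to 8.51), and its partner MALT1 was 3.59-fold lower (4.15, 2.91, 3.31, 4.15 and 4.57 against 4.29 to 8.23 with a median of 5.69). Other probe sets of MALT1 had differences of -0.467 and -0.672 that did not pass (adjusted p = 0.153 and 0.199). TRAF3, a brake on the non-canonical pathway, measured 5.21, 3.69, 3.91, 4.99 and 3.73 in MZL and was below the minimum in all TZL dogs (2.33 to 3.56), at least 1.36-fold higher in MZL. Its call was lost without MZL replicate 1 and with values set to the minimum, and its adjusted p was 0.00185 to 0.101 over the alternatives.

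Among leukocyte phosphatases 2 of 9 were higher in MZL, against 15.2% of all genes. They were PTPN6, an inhibitor of antigen receptor signals (11.54, 11.58, 11.82, 11.52 and 10.93 against 9.13 to 10.73 with a median of 10.03, 2.71-fold), and PTPRJ, at least 2.16-fold. Of 17 genes of MHC class II presentation RFXANK, DLA-DOA, LGMN and IFI30 were higher in MZL and none lower, against 15.2% and 12.3% of all genes. Without MZL replicate 2 the count of higher genes was 2. The call of IFI30 was lost under 18 alternatives, among them leaving out any single MZL dog other than replicate 3. CD74, the invariant chain, was bright in all dogs and did not pass (13.71 ± 0.41 and 13.59 ± 0.20, 95% interval -0.49 to 0.73), nor did its activator CIITA (95% interval -0.54 to 1.82). Of 18 integrins and adhesion genes 6 were lower in MZL and none higher, against 12.3% and 15.2% of all genes. ITGA5 of the fibronectin receptor was 11.8-fold lower and ITGB7 of the gut homing receptor 4.82-fold lower (8.79 to 11.11 against 11.37 to 12.72). Of 7 genes of receptor tyrosine kinases and their ligands EGFR, FLT3, EPHB6 and the ligand VEGFB were lower in MZL, against 12.3% of all genes. The call of VEGFB was lost under 15 alternatives, among them leaving out MZL replicate 1, 2 or 5 and 7 single TZL dogs. The calls of EGFR and EPHB6 were lost with values set to the minimum. Of the 25 members of that list with a probe set, 19 were below the minimum in all 14 dogs. None of 13 immediate early and AP-1 genes passed limma's test at an adjusted p under 0.05, and 1 had an unadjusted p under 0.05. Of 15 interferon response genes IRF1, GBP1 and ISG20 were lower in MZL, against 12.3% of all genes. They were 5.46-fold, 2.00-fold and 8.73-fold lower, and the subtypes overlapped for ISG20 alone of these. The call of ISG20 was lost without MZL replicate 1 or 3.

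The lineage difference at low grade was then set against that at high grade, DLBCL minus the mean of PTCL and LBT, with which it shares no dog. At high grade 2776 genes passed (37.0%). Both comparisons called 1122 genes with the same sign, 54.3% of the low-grade and 40.4% of the high-grade calls, and 57 with opposite signs. The difference between these lineage differences was tested in the same fit, and 555 genes (7.40%) passed, 357 (4.76%) with a more positive and 198 (2.64%) with a more negative difference at low grade. Of these, 271 also differed between MZL and TZL. For 134 genes higher in MZL and 124 lower in MZL the low-grade difference went further in its own direction than the high-grade one, and for 13 the high-grade difference did. The low-grade difference enters both tests, so choosing genes called between MZL and TZL favours such a split, and no conclusion is drawn from it. Of the other 284 genes, 64 lay below the minimum in all MZL and TZL dogs. The count of 555 was 147 with PTCL alone as the high-grade T group and 313 without the arrays standing apart.

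**Figure D5:**
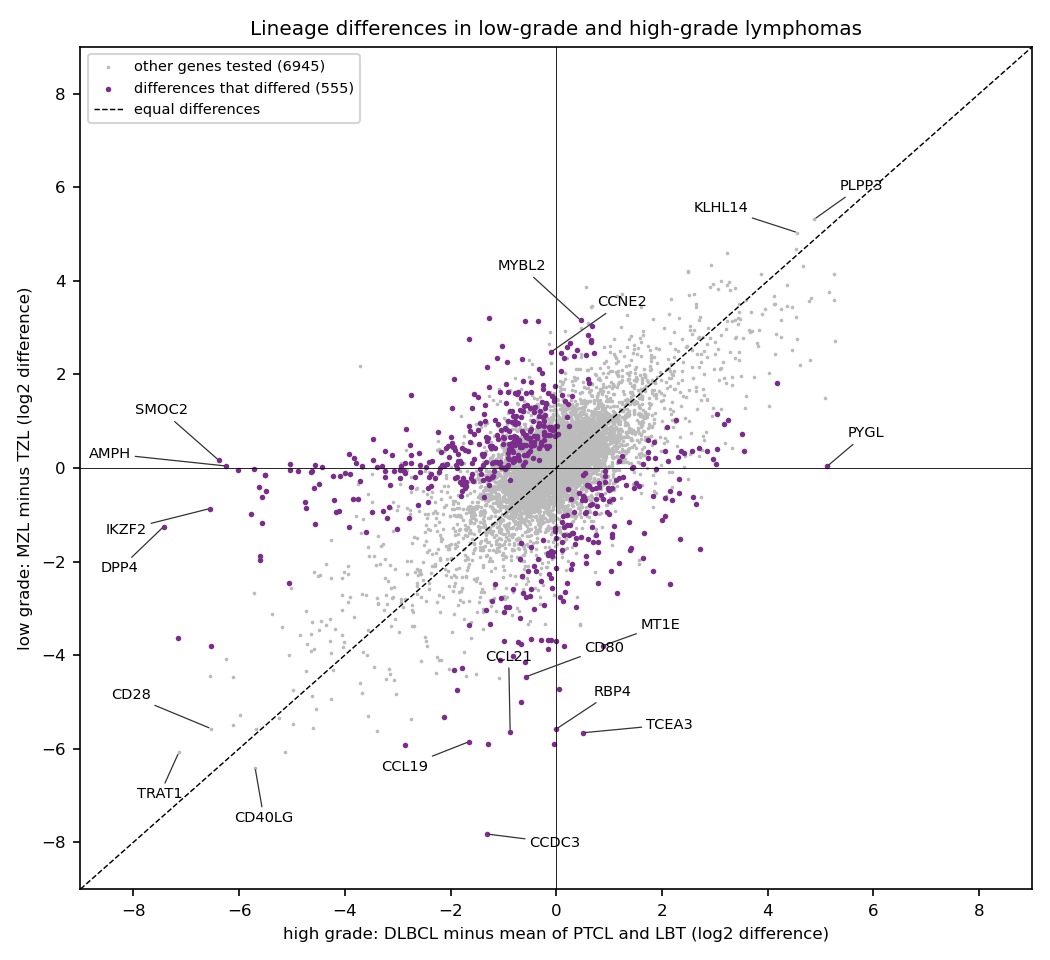
Log2 difference between MZL and TZL (vertical) against that between DLBCL and the mean of PTCL and LBT (horizontal) for 7500 genes, with the 555 genes whose differences differed in purple. CD28, TRAT1, CD40LG, PLPP3 and KLHL14 lie near the line of equal differences, CCDC3, TCEA3, CCL19 and CCL21 below it and DPP4, SMOC2, AMPH and IKZF2 far to the left.

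The most negative differences of differences belonged mainly to genes that were bright in TZL. CCDC3 had a mean of 10.80 ± 0.51 in TZL and of 4.98 ± 1.39 in PTCL, 3.23 ± 1.94 in LBT and 2.80 ± 1.01 in DLBCL (SD), and the difference of differences was -6.52 ± 0.71 (log2 ± SE, limma adjusted p = 4.95e-07). TCEA3 had 9.63 ± 0.71 in TZL and 4.80 ± 0.49 in PTCL (difference of differences -6.17 ± 0.98, adjusted p = 0.000128). RBP4, the carrier of retinol in plasma, measured 10.81, 12.14, 7.26, 11.72, 12.13, 11.80, 11.74, 5.71 and 3.80 in TZL replicates 1 to 9. RBP4 was bright in 6 of them and lowest in replicates 3, 8 and 9, the dogs with the highest CD4. Its difference of differences was -5.58 ± 1.73 (adjusted p = 0.0433) and was lost under 19 alternatives, among them leaving out MZL replicate 1, 3, 4 or 5 or TZL replicate 1, 2, 4, 5, 6 or 7, with an adjusted p of 0.0112 to 0.364 over the alternatives. MT1E, a metallothionein, gave -4.68 ± 1.41, a call that was lost under 12 alternatives, among them leaving out MZL replicate 1, 3, 4 or 5 or TZL replicate 1 or 8. CCL19 and CCL21 gave -4.20 and -4.76, so that their lineage differences were larger at low grade, and both lost the call with PTCL alone as the high-grade T group. CCL19 averaged 5.48 ± 2.23 in PTCL, where the brightest dog reached 8.52, within the TZL range. CD80, JCHAIN, CISH, CD9, IRF1 and CDC25B also passed with negative values, from -3.89 for CD80 to -2.58 for JCHAIN, and the call of JCHAIN was lost under 11 alternatives, among them leaving out MZL replicate 2, 3 or 5 or TZL replicate 1 or 6. PYGL, the liver form of glycogen phosphorylase, did not separate MZL from TZL (4.95 ± 2.57 and 4.92 ± 1.82) and was bright in DLBCL (9.24 ± 1.36), which gave -5.09 ± 1.19.

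The most positive differences belonged to genes bright in LBT and, less evenly, in PTCL. DPP4, the peptidase CD26, measured 3.13, 3.21, 3.37, 3.71 and 2.84 in MZL and 3.47 to 5.37 with a median of 4.69 in TZL, and averaged 9.96 ± 1.27 in PTCL and 11.65 ± 2.20 in LBT (SD, n = 4 each). The lineage difference of DPP4 was -1.25 at low grade, which did not pass (adjusted p = 0.0798), and -7.43 at high grade (difference of differences 6.17 ± 0.70, adjusted p = 8.2e-07). At low grade DPP4 did pass under 5 alternatives, with an adjusted p of 0.00734 to 0.382 over all of them, and with another probe set (-1.72, adjusted p = 0.0229). SMOC2, a matrix protein, AMPH, which shapes endocytic membranes, and NSG1, an endosomal protein of neurons, lay below the minimum in all 14 low-grade dogs and averaged 11.01 ± 0.64, 9.95 ± 0.78 and 9.36 ± 0.43 in LBT. In PTCL they averaged 6.85 ± 3.48, 7.63 ± 3.57 and 7.19 ± 3.37, and at least 1 PTCL dog lay below the minimum for each. IKZF2, the Helios factor of regulatory T cells, measured 2.47 to 7.35 in TZL and averaged 10.57 ± 0.61 in LBT and 8.46 ± 2.28 in PTCL. SMOC2, AMPH and NSG1 passed the filter only through dogs of other subtypes, so their differences of differences restate the high-grade difference. The differences of differences of AMPH (6.28) and IKZF2 (5.68) passed under every alternative that tested them, at 2.99 to 8.36 and 2.72 to 7.76. The alternative that filtered on the MZL and TZL dogs did not test AMPH.

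Of 31 replication genes 9 had a more positive difference at low grade, of 24 mitosis genes 4, and none a more negative one, against 4.76% of all genes. The median lineage difference of the replication list was 0.946 at low grade and -0.223 at high grade, and that of the mitosis list 1.20 and -0.510. CCNE2 averaged 8.21 ± 0.32 in MZL and 5.74 ± 0.87 in TZL, and 7.95 ± 0.77, 8.17 ± 0.44 and 7.92 ± 0.28 in DLBCL, PTCL and LBT (difference of differences 2.58 ± 0.48, adjusted p = 0.000827). MYBL2 and ORC6 passed with 2.70 and 1.75, and both lost the call with PTCL alone and in Golden Retrievers only, MYBL2 also without MZL replicate 3. EZH2, a histone methyltransferase of germinal centre B cells, was 2.43-fold higher in MZL than in TZL and its difference of differences was 1.77 ± 0.37 (adjusted p = 0.00282). Of 17 chromatin regulators EZH2, SMARCA4 and NSD2 were higher in MZL and SMARCA2 and SATB1 lower, shares near the 15.2% and 12.3% of all genes. The call of NSD2 was lost without MZL replicate 5 and those of SMARCA2 and SATB1 without MZL replicate 2. CCND3, a cyclin that passed between MZL and TZL under 4 alternatives only, without TZL replicate 2 among them (adjusted p = 0.256, range 0.0276 to 0.478), passed this test with 2.32 (adjusted p = 0.0404) and lost that call under 13 alternatives, among them leaving out MZL replicate 3 or 4 or TZL replicate 7 or 9. None of the 24 ribosome biogenesis genes passed this test (limma, 2 at an unadjusted p under 0.05), with medians of 0.916 at low and 0.880 at high grade.

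A panel of 34 lymphocyte and tumour genes was followed throughout, of which 30 had a probe set and 26 were tested. In MZL 4 were higher and 6 lower, against 15.2% and 12.3% of all genes, and 16 did not pass. CCND2 measured 9.63 ± 0.33 in MZL and 10.48 ± 0.46 in TZL, and S1PR1, which guides lymphocytes out of nodes, 4.72 ± 1.40 and 5.19 ± 0.67. Neither passed, with 95% intervals of -2.00 to 0.30 and -1.85 to 0.91 for the log2 difference. CCND2 did pass in the fit of the MZL and TZL dogs alone (limma adjusted p = 0.0115, range 0.0115 to 0.597 over the alternatives). KIT and PDGFRA, targets of kinase inhibitors, lay below the minimum in all 14 dogs.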

How the data were processed

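Expression was measured in primary canine lymphomas with Affymetrix canine arrays. The values the authors deposited are linear intensities per probe set, and the submitters' processing notes name GCRMA as the method that summarised them; its version was not given in the sources used here. GCRMA models background from probe sequence and normalises across arrays, and dim probe sets then pile up at low values, so log2 values below 4 (an intensity of 16) were read as bounds. Probe sets were named from the platform annotation, and 1 probe set per gene was kept, that with the highest mean over all 36 arrays.

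The 7500 genes that reached that minimum in 4 or more of the 34 dogs were fitted with limma 3.58.1 in R 4.3.3 on log2 intensities, with a mean for each of 6 subtypes and a shared spread. The arrays of a repeated DLBCL case were averaged, and the case labelled NBNT was left out. P-values were adjusted by Benjamini-Hochberg over all genes. Folds count a value under the minimum as equal to it, which was decided with the data in view, and a fold is "at least" where every dog of the dimmer group lay below it. Control transcripts were compared by exact permutation tests with scipy 1.17.1.

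Named genes were the 8 largest differences in each direction among genes whose dogs did not overlap, up to 4 genes per list by p, the panel, the 5 largest differences of differences in each direction and the 4 most variable genes within each subtype. SEC11C, IL2RB, CD40, NFKBID, PLD4, FCRL4, CCR4, CXCL12, CDK4, PGAM1, ENO2, SATB1 and RFC1 were named after their values were seen. The gene lists and the comparison were chosen with earlier results of these data known.

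On simulated data for MZL against TZL with 7500 genes, 40% of genes changed by 1 on the log2 scale and 90% of those changed by 2 were recovered, with 7 of 7300 unchanged genes called. For the difference of differences 20% and 78% were recovered, with 10 of 7300 called. Alternatives covered filters, probe set choice, normalisation, array weights, sex, age, breed, the arrays standing apart and each dog left out in turn.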

Additional observations from a re-analysis of the deposited data

Results flagged for a closer look

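In 36 of the 283 gene and subtype pairs tested, 1 dog lay apart from the rest of its subtype by Dixon's gap ratio. Log2 values below the minimum were first set to it. Chance exceeds the ratio used in about 1 in 20 groups of untied values. Where all other dogs lay below the minimum, a dog just above it was flagged however small the gap, as for KRT18 in MZL (4.05). For such pairs the rate of 1 in 20 does not hold. The values given are log2 intensities as deposited.

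In TZL the dog that stood apart was often replicate 3, which was the highest for the B cell genes TNFRSF13C (5.55), FCRL1 (4.48) and POU2AF1 (6.83). Replicate 3 was also the highest TZL dog for KLHL14 (5.77), CXCR5 (6.44) and the chromatin regulator NSD2 (4.17). TZL replicate 5 was the lowest for MS4A1 (2.91) and PTPRC (3.14). Other TZL dogs stood apart in single genes. Replicate 6 was the highest for DTX1 (5.89) and CXCL12 (7.83), replicate 7 for BCL2L14 (6.14) and PYGL (9.39) and replicate 4 for FBN1 (4.20). Replicate 9 was the lowest for CD27 (9.87) and replicate 2 for CCND3 (4.49).

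In MZL, replicate 2 was the highest dog for ATP2B4 (4.52), TCEA3 (5.98), S1PR1 (6.99), RBP4 (7.14), MT1E (7.60) and ENO2 (9.32) and the lowest for DLA-DOA (10.48). MZL replicate 3 was the highest for LOC611813 (4.90), PFKL (10.92), KRT18 (4.05) and LOC608379 (6.26) and the lowest for PTPRJ (2.93). MZL replicate 5 was the highest for ITGA5 (4.03), MALT1 (4.57), PYGL (9.16), IKZF2 (4.58) and FCRL4 (5.52). MZL replicate 1 was the lowest for SPI1 (6.36), CD3E (5.14) and CD74 (12.99), and MZL replicate 4 was the highest for CD8A (4.20).

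The lineage difference at low grade differed from that at high grade in 31 of the genes named, by limma's test of the difference itself at an adjusted p under 0.05. It was more negative at low grade for CCDC3 (-6.52), TCEA3 (-6.17), RBP4 (-5.58), PYGL (-5.09), CCL21 (-4.76), MT1E (-4.68), FASLG (-4.63) and CCL19 (-4.20), on the log2 scale. The same direction was found for CD80 (-3.89), CISH (-3.38), CDC25B (-3.23), CD9 (-3.21), IRF1 (-2.65), JCHAIN (-2.58), BCL2L1 (-1.78), BCL2A1 (-1.51) and IL15RA (-1.41). It was more positive for SMOC2 (6.55), AMPH (6.28), DPP4 (6.17), NSG1 (5.71) and IKZF2 (5.68), genes that were bright in LBT. SMOC2, AMPH and NSG1 lay below the minimum in every MZL and TZL dog and passed the filter only through other subtypes. Their values therefore restate the high-grade difference. It was also more positive for MYBL2 (2.70), SATB1 (2.66), CCNE2 (2.58), CCND3 (2.32), NSD2 (1.89), EZH2 (1.77), ORC6 (1.75), CDK4 (1.05) and ENO1 (0.708). Of these 31 genes 13 passed under every alternative that tested them and 18 did not under some, RBP4 under 19 and CCND3 under 13. IL15RA did not pass when values under the minimum were raised to it (limma adjusted p = 0.492). Its difference of differences ranged from -1.54 to -0.173 over the alternatives. CISH and NSD2 also did not pass under that setting.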

How the results depend on the processing

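With the probe set used, no alternative reversed the sign of a called difference among the named genes, and 106 of the 145 that passed did so under every setting that tested them, while 12 of the 27 that did not pass did so under some setting. With every probe set tested 4535 passed, 2330 higher and 2205 lower in MZL, and 1320 for the difference of differences. With a difference of at least 2-fold asked for as well, 1343 genes passed, 685 of them higher. With PTCL alone as the high-grade T group 147 genes passed for the difference of differences, and 313 without the arrays standing apart. Leaving out each dog in turn gave 1633 to 2080 genes between MZL and TZL, lowest without MZL replicate 1, 895 to 1162 higher and 738 to 927 lower, and 426 to 575 for the difference of differences. The actin control difference of -1.24 ranged from -1.54 to -0.485 in that series and was 0.602 without the arrays standing apart, an alternative chosen after seeing the data. Other probe sets reversed BCL2L14 (-0.224) and NDUFS1 (-0.623), neither past the threshold; the cause was not tested. The other settings moved the counts by less than 1.5 times. No paired analysis was possible because the replicate numbers name separate dogs. Signal below the minimum carries no order, so genes dim in a subtype have only a bound there, and 5 and 9 arrays limit the precision. When values under the minimum were raised to it, BCL3, CXCL12, DTX1, E2F5, EGFR, EPHB6, FCRL4 and IFI30 no longer passed between MZL and TZL. The same held for IL15RA, NCR3, NSD2, PRDM1, PTPRJ, TNFRSF1A and TRAF3.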

Other observations

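Some genes were bright in part of the dogs of a subtype and below the minimum in others. In MZL, PKIA, an inhibitor of protein kinase A, measured 1.92, 1.54, 11.11, 10.55 and 8.94 in replicates 1 to 5, below the minimum in 2 dogs and bright in 3. FZD6, a Wnt receptor, measured 9.03, 9.03, 9.03, 2.06 and 2.47, bright in replicates 1 to 3 and below the minimum in the others. GTSF1, a germline gene of the piRNA pathway, reached 7.82 and 7.21 in MZL replicates 3 and 4 and lay below the minimum in the other 3 MZL dogs and in all TZL dogs. LOC100855558 measured 6.88, 13.67, 9.10, 11.28 and 4.68 in MZL. ISG15, an interferon-induced modifier, measured 3.78, 11.89, 7.39, 10.37 and 10.32, lowest in MZL replicate 1, which also had the lowest mean over the interferon list.

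In TZL the widest spreads were those of LOC609053, which the gene table lists as a constant-region segment of an antigen receptor, of CD8B and CCR8 and of LOC608379, listed as a variable segment. LOC609053 measured 12.50, 6.34, 12.55, 8.70, 2.20, 13.10, 8.80, 5.92 and 8.15 in TZL replicates 1 to 9, lowest in replicate 5. LOC608379 measured 3.26, 10.83, 9.77, 6.45, 3.40, 6.03, 2.89, 4.50 and 10.77 and was brightest in replicates 2, 3 and 9. CCR8, a chemokine receptor of skin-homing and regulatory T cells, measured 6.78, 2.75, 2.46, 5.29, 9.64, 10.46, 9.57, 9.43 and 2.88. CCR8 was bright in replicates 5 to 8 and below the minimum in replicates 2, 3 and 9. These genes were picked by their spread, so no test is given for it.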
